A study of Mus musculus with 6 samples.

Results

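The alpha-crystallin genes Cryaa and Cryab, the small heat shock protein genes Hspb1 and Hspb8, and the heat shock factor genes Hsf1, Hsf2 and Hsf4 were examined in RNA-Seq libraries of embryonic mouse lenses. These 7 genes were taken by name from the 13024 genes of the count table, and all 7 had enough counts to be tested. The libraries came from 6 pools of E14.5 lenses on a mixed C57BL/6 and FVB background, each made of 10 lenses from 5 embryos. The 3 CKO pools carried the floxed Gata3 allele (Gata3 f/f, with exon 4 between loxP sites) and Pax6-Cre, a transgene with a Pax6 enhancer that drives Cre recombinase in the precursors of lens and cornea. The 3 control pools are labelled wild type, while the methods give them as Gata3 f/f and the results as Gata3 f/wt, in each case without Cre. Only the CKO pools carried Cre, so the presence of Cre and the loss of Gata3 cannot be told apart. The comparison asks how these genes respond in lenses in which Gata3, a transcription factor of lens fibre cell differentiation, was targeted.

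Alpha-crystallins are small heat shock proteins that accumulate in lens fibre cells, where they act both as structural proteins and as chaperones that hold unfolding proteins in solution. Cryaa is largely a lens gene, whereas Cryab, Hspb1 and Hspb8 are also expressed in muscle and other tissues. Heat shock factors are transcription factors that bind heat shock elements, which are inverted repeats of the unit GAA. Hsf1 drives the heat shock response in most cells, Hsf2 acts mainly in development, and Hsf4 is needed for late fibre cell differentiation, and mutations in it cause cataract.

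Promoter sequences are shown because heat shock factors act through heat shock elements. In the RefSeq promoters of GRCm38.p6 (250 bases before to 50 after each gene start), entries were found for 4 of the 7 genes: Cryaa, Hspb1, Hspb8 and Hsf2. A pair of units in either arrangement, GAANNTTC or TTCNNGAA, was searched for; each of these patterns reads the same on either strand. Matches are in capitals in the following sequences, which are the bases before the RefSeq start of Cryaa at chr17:31677681-31677930 and of Hspb1 at chr5:135887669-135887918, both on the forward strand, and 30 bases around the Hspb8 match at chr5:116422844-116422873 on the reverse strand.
Cryaa: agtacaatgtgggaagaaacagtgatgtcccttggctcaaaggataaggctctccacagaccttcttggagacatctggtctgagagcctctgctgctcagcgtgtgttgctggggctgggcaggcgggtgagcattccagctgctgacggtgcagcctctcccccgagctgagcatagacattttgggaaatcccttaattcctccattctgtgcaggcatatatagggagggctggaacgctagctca
Hspb1: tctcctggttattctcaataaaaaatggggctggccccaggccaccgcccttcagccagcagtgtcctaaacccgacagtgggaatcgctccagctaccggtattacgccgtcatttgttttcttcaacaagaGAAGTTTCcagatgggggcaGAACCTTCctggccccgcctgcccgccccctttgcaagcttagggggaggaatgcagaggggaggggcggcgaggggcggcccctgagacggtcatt
Hspb8: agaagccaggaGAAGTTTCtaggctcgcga
RefSeq starts Cryaa downstream of the first base of the gene in GENCODE, so the last part of this Cryaa sequence lies within the GENCODE gene. The Hspb1 promoter held 2 matches, at -117 to -110 and at -97 to -90 from its start. The Hspb8 promoter held 1, at bases 3 to 10 of the transcript. Cryaa and Hsf2 held none in this window. Among all 32851 promoters of this length, 15.1% held such a pair. A run of 3 units in alternating direction was in none of the 4 promoters and in 0.603% of all promoters. None of the 4 promoters held a GATA match (AGATAA on either strand, with T also allowed as its first and G as its last base), which 29.8% of all promoters held.

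The libraries held 15157230 to 18811104 counts. The count over the whole targeted gene was higher in CKO pools. Gata3 had 202, 386 and 156 counts in control pools 1, 2 and 3. In the 3 libraries that carry the CKO label it had 910, 1064 and 894 counts. The log2 fold change was 1.72 (SE 0.40, adjusted p = 0.650 in edgeR and 0.00163 in DESeq2). One count per gene does not show whether exon 4 was present, so these counts neither bear out nor contradict the labels. Every direction given here is that of the libraries labelled CKO. Control pool 2 stood apart, with 16.5% of its counts on the 16 crystallin genes against 5.47% to 9.31% in the other libraries. Summed over 17 fibre cell markers, it held 26741 CPM (counts scaled to equal library size by TMM), against 9147 and 12881 CPM in the other control pools and 8359 to 12408 CPM in the CKO pools. The 10 epithelium markers summed to 2674 to 3957 CPM in control and 2371 to 2578 CPM in CKO pools, so markers of both lens cell types were present. Other tissue differed between pools of the same group. Mesenchyme markers summed to 497 to 2832 CPM in control pools (highest in pool 1) and to 528 to 4903 CPM in CKO pools (highest in pool 2), and retina markers to 1151 to 2534 CPM and 1690 to 2303 CPM.

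The 7 genes spanned a wide range of expression. To compare genes, CPM was divided by the length of the principal transcript in kilobases. On this scale the order of the control means was Cryaa, Cryab, Hsf4, Hsf1, Hsf2, Hspb1 and Hspb8. Cryaa lay between 17938 and 51650 CPM per kilobase in the 6 libraries and was 28.8 to 52.8 times as high as Cryab, which lay between 339.9 and 1086 CPM per kilobase. Cryab was in turn 11.6 to 37.2 times as high as Hsf4. The values of Hsf4, Hsf1 and Hsf2 lay close together: Hsf1 between 20.6 and 26.3, Hsf2 between 16.8 and 22.5, and Hsf4 between 18.0 and 74.7 CPM per kilobase. Hsf4 and Hsf1 overlapped, as did Hsf1 and Hsf2. In CKO pools the mean of Hsf4 (20.9 ± 3.04 CPM per kilobase, SD, n = 3) fell in rank from 3 to 5, below Hsf1 and Hsf2, but these neighbours in the order did not differ beyond their spread. Hspb1 and Hspb8 were lowest, between 1.85 and 7.34 CPM per kilobase, and overlapped each other.

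**Figure D1:**
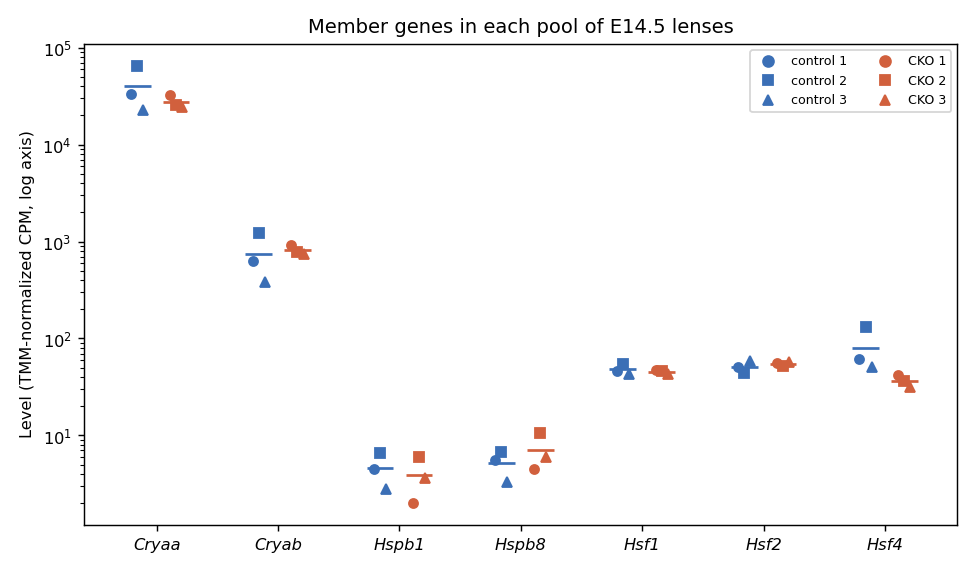
Level of each gene in each pool in TMM-normalized CPM on a log axis, with control pools in blue, CKO pools in orange, a symbol for each pool number and a line at each group mean. Hsf4 is the gene whose control values (50.8 to 129.9 CPM) all lie above its CKO values (31.3 to 41.8 CPM).

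No member reached an adjusted p-value under 0.05 in edgeR's quasi-likelihood test or in DESeq2, against 0.0% and 0.66% of the 12879 genes tested. At an unadjusted p-value under 0.05, each test picked 1 of the 7, Hsf4, against 3.55% of all genes in edgeR and 3.94% in DESeq2.

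Cryaa, on chromosome 17 (31677807 to 31681733, forward strand, mm10), was the more abundant alpha-crystallin. Its level was 33473, 64769 and 22494 CPM in control pools 1, 2 and 3, and 32456, 25302 and 24645 CPM in CKO pools 1, 2 and 3. The groups overlapped, and the spread of the control pools came mostly from pool 2. The log2 fold change was -0.55 (SE 0.41, 95% interval -1.53 to 0.43, adjusted p = 0.9998 in edgeR), -0.018 without control pool 2 and -0.84 without control pool 3.

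Cryab, on chromosome 9 (50751325 to 50756636, forward strand), was at 632, 1213 and 379.7 CPM in control pools and at 929, 782 and 747 CPM in CKO pools. These groups overlapped too, and the log2 fold change was 0.14 (SE 0.39, 95% interval -0.80 to 1.09, adjusted p = 0.9998 in edgeR). It was 0.70 without control pool 2 (unadjusted p = 0.0325, adjusted p = 0.713, against 6.27% of all genes with an unadjusted p under 0.05 in that fit) and -0.17 without control pool 3. Cryab shares 252 exon bases with Hspb2, a small heat shock protein gene on the opposite strand, and the strand option of the counting is not stated. Hspb2 had only 55 to 126 counts, against 6797 to 17216 for Cryab.

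Within each library, however, the balance of the alpha-crystallins differed between the groups without overlap. There were 53.0, 53.4 and 59.2 Cryaa counts for each Cryab count in control pools 1, 2 and 3, and 34.9, 32.4 and 33.0 in CKO pools 1, 2 and 3. Every CKO library was thus lower than every control library, control pool 2 included. The means were 55.2 ± 3.52 and 33.4 ± 1.34 (SD, n = 3), which is 1.65-fold lower in CKO or -0.72 on the log2 scale. An exact two-sided permutation test gave p = 0.1, which no design of this size can go below. Among all genes, 3.06% had a ratio to Cryaa that was higher in every CKO library, as Cryab did. When the Cryaa count was used as library size in edgeR, Cryab was 0.72 higher on the log2 scale (SE 0.49, adjusted p = 0.857), which did not pass, in a fit that called 0.14% of all genes.

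The alpha-crystallins also took a larger part of the crystallin counts. Cryaa and Cryab together made up 36.6%, 34.8% and 35.6% of the counts on the 16 crystallin genes in control pools, and 46.7%, 45.7% and 48.7% in CKO pools (exact two-sided permutation test, p = 0.1). The groups did not overlap and differed by 0.40 on the log2 scale. Cryaa alone made up 35.0 ± 0.844% (SD, n = 3) in control and 45.7 ± 1.49% in CKO pools, and Cryab 0.637 ± 0.0432% and 1.37 ± 0.0665%, a 2.15-fold higher share. The beta- and gamma-crystallins, the other structural proteins of the fibre cell, mostly had lower ratios to both genes in CKO pools. Relative to Cryab, 13 of these 14 genes were lower in every CKO library, with a median of -1.46 on the log2 scale, against 4.12% of all genes, and Crybb2 overlapped. Relative to Cryaa, 12 were lower in every CKO library (median -0.73), against 0.87% of all genes. Crygs was higher by 0.40, in every CKO library, against 3.06% of all genes, and Crybb2 overlapped. In CPM, all 14 had a negative log2 fold change (median -1.28) and 10 were lower at an unadjusted p under 0.05 in edgeR, against 2.24% of all genes. Without control pool 2, the median was -0.73, 13 were negative and Crygs was at 0.48, with 10 lower at an unadjusted p under 0.05, against 2.47% of all genes. A larger alpha-crystallin share therefore stood beside an alpha-crystallin level that did not differ beyond the spread of the pools. In lens pools, fewer fibre cells and less RNA per fibre cell cannot be told apart.

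**Figure D2:**
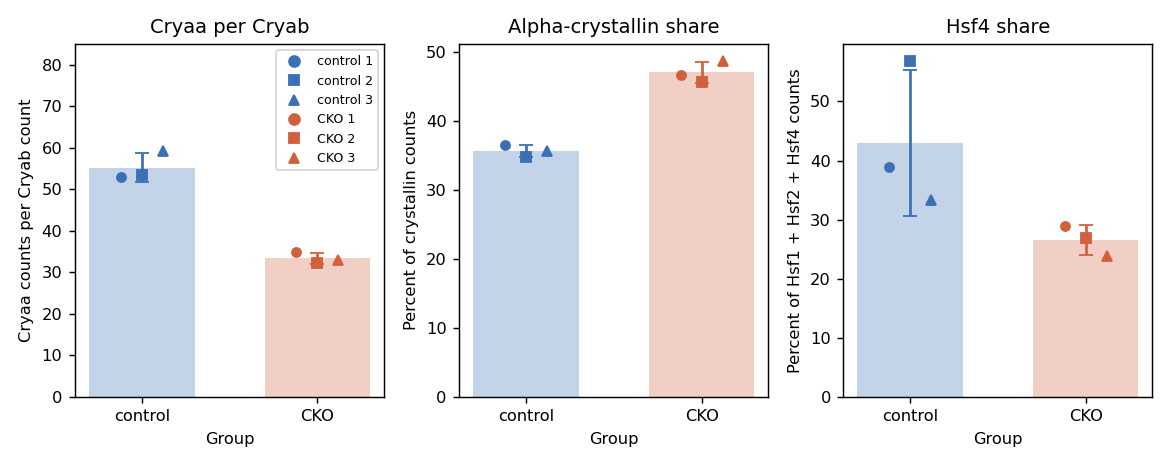
Cryaa counts per Cryab count, alpha-crystallin percent of the counts on 16 crystallin genes, and Hsf4 percent of the summed Hsf1, Hsf2 and Hsf4 counts; bars are group means, error bars the SD of 3 pools and symbols the pools. In each plot the 3 control and 3 CKO libraries do not overlap, and the Hsf4 share of control pool 2 (56.9%) lies far above the other control pools.

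The small heat shock proteins were scarce in these lenses. Hspb1, on chromosome 5 (135887919 to 135889563, forward strand), encodes HSP27, which protects actin filaments and holds unfolded proteins. It had 72, 94 and 50 counts in control pools and 31, 118 and 70 in CKO pools, or 2.01 to 6.62 CPM. The groups overlapped, and the log2 fold change was -0.25 (SE 0.47, 95% interval -1.37 to 0.87, adjusted p = 0.9998 in edgeR). Without control pool 2 or CKO pool 1 its sign turned, so no direction can be given.

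Hspb8, on the reverse strand of chromosome 5 (116408491 to 116422864), encodes a partner of Bag3 in the disposal of misfolded proteins. It had 88, 95 and 60 counts in control pools and 70, 211 and 116 in CKO pools. CKO pool 2 was highest and the groups overlapped. The log2 fold change was 0.46 (SE 0.39, 95% interval -0.48 to 1.40, adjusted p = 0.9998 in edgeR), and 0.030 to 0.69 with each library left out. Both genes were highest in control pool 2 and CKO pool 2 of their groups, the pools in which 11 muscle markers were also highest (261 and 363 CPM, against 121 to 157 and 97.1 to 153 CPM in the other pools of each group). Macrophage markers (137 and 87.3 CPM) and blood markers (1321 and 426 CPM) were also highest in these pools of their groups. The part of muscle or of any other tissue in the values of Hspb1 and Hspb8 was not tested. In a ratio chosen after its values were seen, Hspb8 had 1.22, 1.01 and 1.20 counts for each Hspb1 count in control pools and 2.26, 1.79 and 1.66 in CKO pools (exact two-sided permutation test, p = 0.1). At 31 to 211 counts per gene, counting error adds to each of these ratios.

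Hsf1, on chromosome 15 (76477422 to 76501913, forward strand), was nearly level over the libraries, at 45.9, 54.8 and 43.2 CPM in control pools and 47.1, 45.9 and 42.9 CPM in CKO pools. Its log2 fold change was -0.083 (SE 0.11, 95% interval -0.34 to 0.18, adjusted p = 0.9998 in edgeR). Hsf2, on chromosome 10 (57486385 to 57513135, forward strand), was at 50.5, 43.6 and 58.6 CPM in control pools and at 55.7, 52.1 and 57.2 CPM in CKO pools. Its log2 fold change was 0.11 (SE 0.12, 95% interval -0.17 to 0.39, adjusted p = 0.9998 in edgeR). For both factors the groups overlapped, and the intervals are the narrowest of the 7 genes.

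Hsf4, on chromosome 8 (105269801 to 105275845, forward strand), was lower in every CKO library than in every control library. It was at 61.3, 129.9 and 50.8 CPM in control pools 1, 2 and 3, and at 41.8, 36.2 and 31.3 CPM in CKO pools 1, 2 and 3. Of all genes, 4.69% were lower without overlap in this way. The means were 80.7 ± 42.9 and 36.4 ± 5.28 CPM (SD, n = 3). The log2 fold change was -1.15 (SE 0.36, 95% interval -2.004 to -0.289), with an unadjusted p of 0.0164 and an adjusted p of 0.9998 in edgeR, and an adjusted p of 0.101 in DESeq2. It was -0.61 without control pool 2, and -1.39 to -0.61 over all 6 libraries left out in turn, with unadjusted p-values of 0.00413 to 0.0566 in edgeR. The highest of these, the only 1 above 0.05, was without CKO pool 3. DESeq2 called it without control pool 2 (adjusted p = 0.0275, with 1.26% of all genes called) and without control pool 3 (adjusted p = 0.000959, with 1.69% called). It did not call it with any of the other 4 libraries left out (adjusted p = 0.141 to 0.99982).

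Within the family, Hsf4 made up 38.9%, 56.9% and 33.3% of the summed Hsf1, Hsf2 and Hsf4 counts in control pools and 28.9%, 27.0% and 23.8% in CKO pools. The groups did not overlap (exact two-sided permutation test, p = 0.1), and the difference was -0.66 on the log2 scale. This share is not independent of the Hsf4 level in CPM, which was lower without overlap, as in 4.69% of all genes. Relative to Cryaa, there were 1.83, 2.01 and 2.26 Hsf4 counts per 1000 Cryaa counts in control pools and 1.29, 1.43 and 1.27 in CKO pools. This comparison was added after the values were seen. Of all genes, 0.87% had a ratio to Cryaa that was lower in every CKO library. With the Cryaa count as library size in edgeR, Hsf4 was at -0.61 (SE 0.51, 95% interval -1.61 to 0.38, adjusted p = 0.857), which did not pass. Of the 21 ratios between members, 7 separated the groups. Of these, 5 held Hsf4, and the others were Cryaa to Cryab and Hspb1 to Hspb8. Over all genes, 3.93% of ratios to Cryaa separated the groups in either direction. This share holds for Cryaa as denominator only, and shares for other denominators were not computed. The 5 ratios are not independent, because Hsf4 itself separated the groups in CPM, as 8.36% of all genes did.

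Fibre cell markers were lower along with Hsf4: all 17 in the table had a negative log2 fold change (median -1.04, against 0.0019 for all genes). Of these, 9 were lower at an unadjusted p under 0.05 in edgeR, against 2.24% of all genes. By adjusted p, edgeR called 0 of the 17 and DESeq2 called 7, against 0.0% and 0.66% of all genes. Without control pool 2, 12 of the 17 were negative, with a median of -0.46. Negative log2 fold changes were also found for markers of other cell types: 8 of 9 vessel markers (median -0.45, range of the sum 284 to 362 CPM in control and 247 to 315 CPM in CKO pools), 9 of 9 macrophage markers (median -0.44, 72.6 to 137 and 60.6 to 87.3 CPM) and 4 of 4 tested blood markers (median -0.71, 361 to 1321 and 313 to 426 CPM for all blood markers in the table). Without control pool 2 these medians were -0.30, -0.22 and 0.00022. Of the 10 epithelium markers, 9 were negative (median -0.19, and -0.029 without control pool 2). Their sums were 2674 to 3957 CPM in control and 2371 to 2578 CPM in CKO pools. Positive log2 fold changes prevailed among retina (12 of 14) and mesenchyme markers (13 of 14). The part of any of these markers in the lower Hsf4 level was not tested. A fit that took the mean log2 CPM of retina markers and of mesenchyme markers as covariates left 2 residual degrees of freedom. Its p-values therefore rest largely on a spread shared over all genes, more than on the replicate pools of each gene. In this edgeR fit Hsf4 was at -0.78 (SE 0.075, adjusted p = 8.03e-07) and Cryab at 0.57 (SE 0.088, adjusted p = 0.000903), while Cryaa was at -0.16 (adjusted p = 0.652). Hspb8 was at 0.51 (95% interval 0.086 to 0.929, unadjusted p = 0.0207, adjusted p = 0.262 in edgeR). This fit called 3.64% of all genes, and 11.6% had an unadjusted p under 0.05, against 3 of the 7 members.

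**Figure D3:**
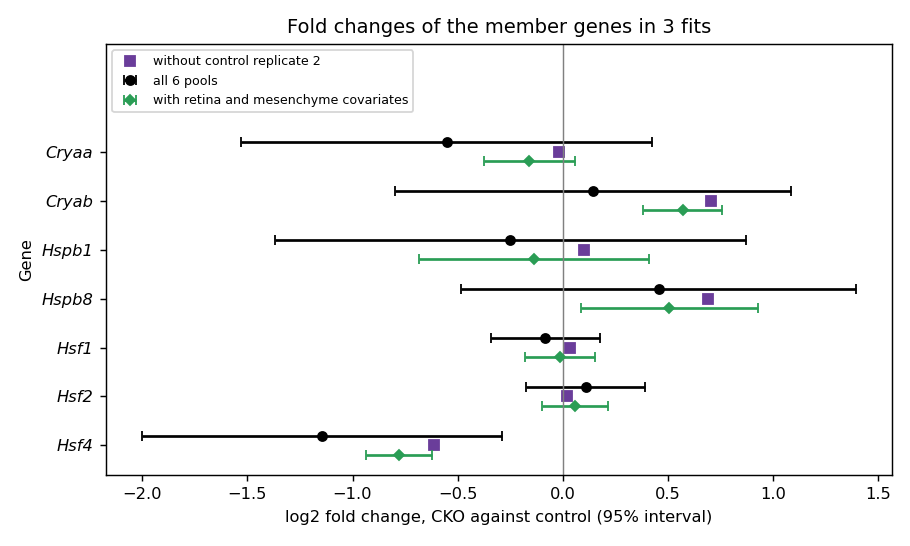
log2 fold change of CKO against control for each gene with all 6 pools (black), without control replicate 2 (purple squares, drawn without an interval) and with retina and mesenchyme covariates (green); bars are 95% intervals. The interval of Hsf4 lies below 0 with all pools (-2.004 to -0.289), and those of Cryab and Hspb8 span 0 with all pools and lie above 0 with the covariates.

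Of 6 genes reported to depend on Hsf4 in the lens, 5 were tested. Bfsp1 and Bfsp2 encode the beaded filament proteins of fibre cells, Dnase2b the nuclease that degrades their nuclei, Crygs a late gamma-crystallin, and Hspb1 is itself in this list. Bfsp1 was at 715, 1945 and 637 CPM in control pools and at 199, 166 and 137 CPM in CKO pools. Its log2 fold change was -2.72 (SE 0.47, adjusted p = 0.473 in edgeR and 0.000778 in DESeq2). Bfsp2 was at 531, 963 and 364 CPM in control pools and at 235, 205 and 193 CPM in CKO pools, a log2 fold change of -1.55 (SE 0.34, adjusted p = 0.638 in edgeR and 0.000446 in DESeq2). Dnase2b was nearly absent from CKO pools, at 0.973, 0.305 and 0.468 CPM against 12.9, 22.6 and 7.54 CPM in control pools. Its log2 fold change was -4.64 (SE 0.59, adjusted p = 0.322 in edgeR and 1.28e-13 in DESeq2). For these 3 genes no CKO value reached a control value, against 4.69% of all genes that were lower without overlap. Crygs, at 108.7, 248.4 and 68.6 CPM in control pools and 152, 118 and 98.1 CPM in CKO pools, overlapped, as did Hspb1. The log2 fold change of Crygs was -0.21 (SE 0.46), 0.48 without control pool 2 and 0.30 in the covariate fit (adjusted p = 0.0272 in edgeR), so no direction can be given.

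Thus 3 of the 5 were lower at an unadjusted p under 0.05 in edgeR, against 2.24% of all genes, and 3 were called by DESeq2, against 0.66%. The median log2 fold change was -1.55, against 0.0019 for all genes. Without control pool 2 it was -1.08, and 3 of the 5 were negative. Bfsp1, Bfsp2, Dnase2b and Crygs are also among the fibre cell markers, so the lists are not independent. The lists were also written with earlier results of these data known. The counts set against all genes are therefore descriptions and no test of a list. The Dnase2b promoter held 1 pair of heat shock element units, as 15.1% of all promoters did, and no run of 3 units. The pair is shown in capitals in 30 bases of the reverse strand at chr3:146615810-146615839, because Dnase2b had the most negative fold change of the list. This promoter also held 3 GATA matches, and the Bfsp1 promoter held 1, while 29.8% of all promoters held a GATA match. The promoters of Bfsp1, Bfsp2 and Crygs held no heat shock element match, and those of Bfsp2 and Crygs no GATA match.
Dnase2b: aaaaaaaaaaaGAATGTTCcccagggcctt

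**Figure D4:**
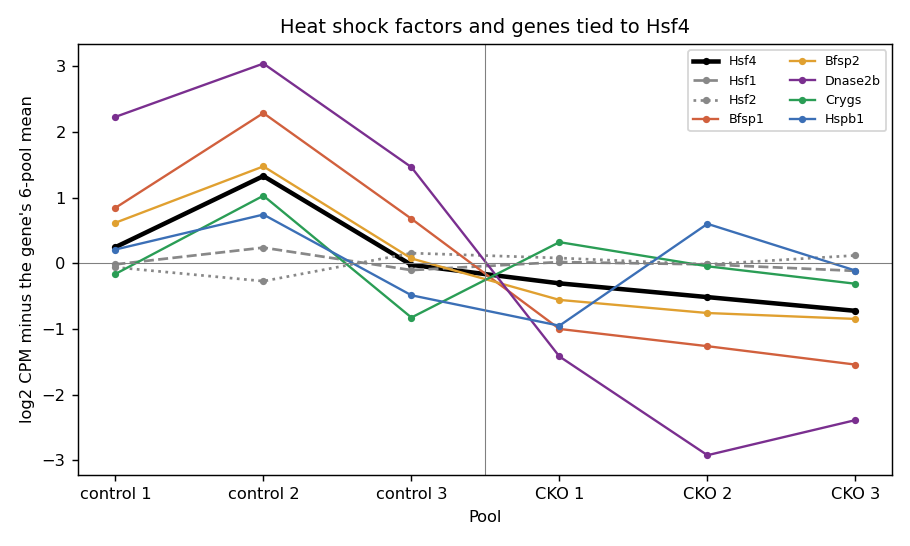
log2 CPM of the heat shock factors and of the tested genes reported to depend on Hsf4, each centred on its own mean over 6 pools. Lines join the values of a gene and carry no order of pools. Hsf4, Bfsp1, Bfsp2 and Dnase2b are highest in control pool 2 and lowest in the CKO pools, whereas Hsf1 and Hsf2 stay close to their means in every pool.

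The genes with the most similar profiles were sought for each member that spanned more than 1 log2 unit, by the smallest largest difference between centred log2 CPM over the 6 libraries, among 10421 genes. For Hsf4 these were the beta- and gamma-crystallins Crybb3 (0.067), Cryba2 (0.086) and Crygn (0.104). For Cryaa they were Fam46c (0.062), Sox2ot (0.075) and Chrng (0.086), and for Cryab Tinagl1 (0.128), Pip5kl1 (0.147) and Npl (0.157). Hspb1 lay closest to Mef2c (0.204), Mylpf (0.277) and Nid2 (0.344), and Hspb8 to Dsc2 (0.258), Ptrf (0.263) and Acta2 (0.276). Mylpf and Acta2 encode muscle proteins, and so does Chrng, which was listed for Cryaa. Hsf1 and Hsf2 spanned less than 1 unit and were not searched. These likenesses are descriptions over 6 libraries that share their depth and tissue makeup.

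The fold changes of other chaperone genes lay in about the same range as those of all genes. Of 49 further genes in 7 lists (small heat shock proteins, heat shock factor regulators, HSP70 and HSP110, HSP90 and co-chaperones, DNAJ proteins, BAG proteins, and HSP60 with HSP10), 41 were tested. No gene of them passed the adjusted p in edgeR or in DESeq2 with all pools and no covariates, and 2 had an unadjusted p under 0.05 in edgeR, against 3.55% of all genes. There were 20 negative and 21 positive log2 fold changes, with a median of 0.0012, and 87.8% lay within 0.25 of 0, against 84.7% of all genes. Hsp90ab1, the constitutive HSP90 and the most abundant, was at 3357 to 4307 CPM in control and 3360 to 3504 CPM in CKO pools. Hspa1a, a heat-inducible HSP70 gene, was at 4.92 to 6.77 CPM in control and 5.83 to 6.29 CPM in CKO pools, with overlap. It was chosen after its values were seen.

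Hspa8, the constitutive HSP70, was at 208.8, 211.5 and 198.8 CPM in control pools and at 251.8, 237.0 and 258.1 CPM in CKO pools. Its log2 fold change was 0.27 (SE 0.070, unadjusted p = 0.00634, adjusted p = 0.800 in edgeR and 0.0692 in DESeq2). Dnajb1, an HSP40 that works with HSP70, was at 103.2, 163.3 and 88.8 CPM in control pools and at 71.9, 64.7 and 73.1 CPM in CKO pools. Its log2 fold change was -0.76 (SE 0.22, unadjusted p = 0.0128, adjusted p = 0.989 in edgeR and 0.132 in DESeq2), and -0.45 without control pool 2. For both genes the groups did not overlap. The covariate fit called these 2 of the 41 (adjusted p = 0.00864 for Hspa8 and 0.000132 for Dnajb1), against 3.64% of all genes. In all, 6 of the 41 separated the groups, against 8.36% of all genes; the other 4 were Ahsa1, St13 and Bag1, which were lower, and Dnajb6, which was higher, and they are named after their values were seen.

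**Figure D5:**
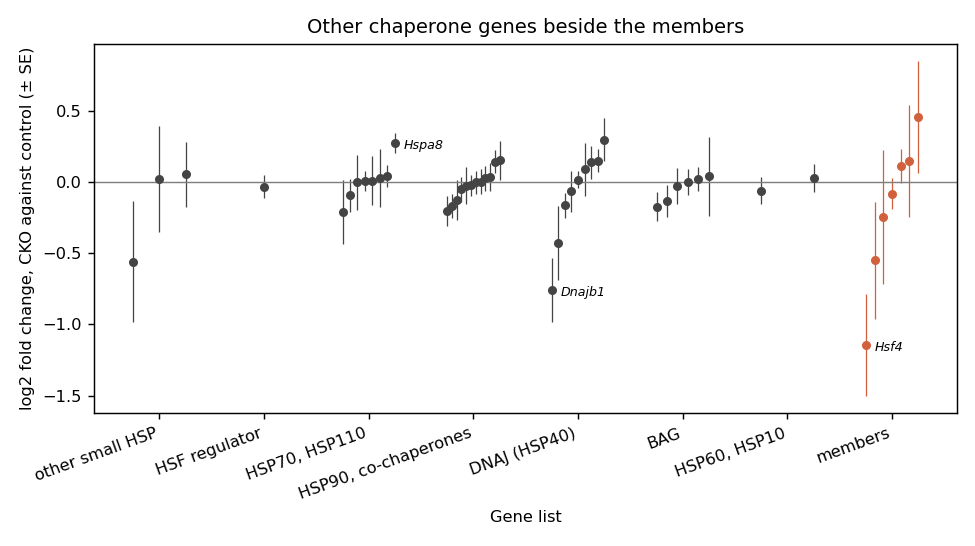
log2 fold change of CKO against control for the 41 further chaperone genes by list and for the 7 members (orange); bars are the SE, and genes with an unadjusted p under 0.05 are named. Hspa8 (0.27), Dnajb1 (-0.76) and Hsf4 (-1.15) are the named genes, and 36 of the 41 chaperone genes lie within 0.25 of 0.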

How the data were processed

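Per the paper's methods and the submitters' processing notes, polyadenylated RNA was sequenced as strand-specific paired-end libraries, reads were trimmed with Trim Galore and aligned to mm10 with TopHat 2.0.13, and fragments were counted per RefSeq gene with HTSeq 0.6.1. The strand and overlap options are not given in the sources used here. The authors deposited these raw counts for genes with a mean FPKM (Cuffdiff 2.2.1) above 1 in either group. The CKO samples are numbered 1 to 3 as in their titles. No sample was dropped.

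Library sizes were scaled by TMM, and genes with 10 or more counts in 3 or more libraries were tested in edgeR 4.0.16 under R 4.3.3 (robust quasi-likelihood fit, Benjamini-Hochberg adjustment over all genes tested, threshold 0.05); 12879 of 13024 genes passed this filter. Ratios of counts within a library were compared by exact two-sided permutation tests (scipy 1.17.1). p-values measure the spread between pools, and edgeR moderates the spread of each gene by that of all genes. The edgeR test was also run on simulated counts with known fold changes. These held no shift shared by many genes of a pool, so the run does not vouch for the test in these libraries. Alternatives were DESeq2 1.42.0, limma voom 3.58.1, RLE factors, crystallins left out of library sizes, no filter on low counts, replicate numbers as a block, marker covariates, and each library left out; DESeq2 with a library left out and the Cryaa count as library size were added after seeing the data. Positions, exon overlaps and transcript lengths came from GENCODE M21 (GRCm38, the assembly of mm10), and promoters from RefSeq (GRCm38.p6).

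Genes named are the 7 members, Gata3, and genes of the lists with an unadjusted p under 0.05 or the highest level. Also named are the genes reported to depend on Hsf4, the 3 most similar profiles (mean of at least 10 CPM), and overlapping neighbours. The members and lists were chosen with earlier results of these data known.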

Additional observations from a re-analysis of the deposited data

How the results depend on the processing

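The count of the 7 genes with an adjusted p under 0.05 was 0 in edgeR and 2 with retina and mesenchyme covariates; with each library left out it was 0 to 1, the 1 being Hsf4 in DESeq2. Over 140 alternative fold changes of the members, 20 for each, 128 kept direction and side of the threshold, 4 passed it and 8 changed sign, all 8 with a library left out. With each library left out, edgeR gave -0.17 to 0.70 for Cryab, -0.70 to 0.10 for Hspb1 and -0.15 to 0.034 for Hsf1. DESeq2 turned the same genes, to -0.17 for Cryab without control pool 3, 0.092 and 0.055 for Hspb1 without control pool 2 and CKO pool 1, and 0.028 for Hsf1 without control pool 2; the cause was not tested. Hsf4 stayed negative in its 20 alternatives (-1.39 to -0.61). Gata3 was at 1.41 to 2.32 with each library left out, at 1.72 in DESeq2 (adjusted p = 0.00163; 2.32, 1.41 and 1.80 without control pool 2, control pool 3 and CKO pool 3) and at 2.15 with the covariates (adjusted p = 2.33e-11). Of the genes reported to depend on Hsf4 in the lens, 0 were called in edgeR and 3 in DESeq2, against 0.0% and 0.66% of all genes. The 3 ratios within libraries kept their direction in all their alternatives. With each library left out, Cryaa to Cryab differed by -0.75 to -0.67, the alpha-crystallin share by 0.37 to 0.42 and the Hsf4 share by -0.83 to -0.44 on the log2 scale.

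Control and CKO pools share title numbers, but nothing in the labels ties them, and the correlations of same-numbered pools were -0.49, 0.09 and 0.44, so the numbers were not taken as pairs. With the replicate number as a block, 0 members were called and the log2 fold changes were -0.42 for Cryaa, 0.31 for Cryab and -1.03 for Hsf4. Hspb1 and Hspb8 had the lowest counts of the members (31 to 211 per library), so counting error weighs most on them.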

Other observations

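Of 6 transcription factor genes that act on alpha-crystallin promoters (Pax6, Maf, Sox1, Sox2, Prox1 and Creb1), none had an unadjusted p under 0.05 in edgeR (3.55% of all genes), and DESeq2 called 0 (0.66% of all genes). Their log2 fold changes lay between -0.50 and 0.02, with a median of -0.10. Without control pool 2 the median was -0.018, and Maf (0.022), Sox1 (0.35) and Prox1 (0.31) were positive. Pax6, the master regulator of eye development and the most abundant of them, was at 647, 598 and 662 CPM in control pools and at 619, 586 and 647 CPM in CKO pools, with overlapping groups (log2 fold change -0.04, SE 0.086).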
